A study of Rattus norvegicus with 5 samples.

Results

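The genes described here encode the subunits of the mitochondrial respiratory chain and of ATP synthase, with the factors that assemble them. Their members were all probe sets whose single gene symbol starts with Nduf, with Sdh followed by a, b, c or d, with Uqcr, with Cox followed by a digit of the nuclear-encoded subunits, or with Atp5, or is Cyc1. The rule took 89 of the 10411 genes named on the array, with 95 of its 15866 probe sets, and used no measured value. Of the 95, 85 probe sets for 83 genes were bright enough to be tested, and the 10 that were not are given below. A further 9 probe sets of such genes carried several gene symbols and were left out, among them both probe sets of cytochrome c.

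Total RNA was taken from INS-1, an insulin-secreting line grown from a rat beta cell tumour, and from 4 of its clones, with 1 single-colour array for each, 5 in all. Every clone carries an FRT site, into which Flp recombinase can place a gene, and the tetracycline repressor, which silences such a gene in the absence of tetracycline. No label names a gene placed there. The clones are 5-3.19 and 5-3.14, called set 5-3 here, and 1-1.16 and 1-1.2, called set 1-1, and the parental INS-1 line is the one that these elements were added to. The labels give no origin for the names and no separate cultures, so each line stands for 1 culture, and p-values measure only the spread between these clones. The comparisons below ask how far the clones differ from parental INS-1 cells and from each other.

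The respiratory chain passes electrons from NADH through complex I and from succinate through complex II to complex III, then through cytochrome c to complex IV, where oxygen is reduced. Complexes I, III and IV pump protons across the inner mitochondrial membrane, and ATP synthase, also called complex V, makes ATP as the protons flow back. In beta cells the ATP made from glucose closes potassium channels, which starts calcium entry and insulin release. Most subunits are encoded in the nucleus and are built into complexes with the help of assembly factors that are not part of the finished enzyme.

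Signals are on an arbitrary linear scale, and the trimmed mean of each array was 1000. On all 5 arrays the 5 beta cell markers (Ins1, Ins2, Iapp, Pdx1 and Slc2a2) were bright enough to test, and their summed signal was 73368 and 77026 in clones 5-3.19 and 5-3.14, 67571 and 114067 in clones 1-1.16 and 1-1.2, and 105831 in parental cells. Among them Ins2 read 4303 and 3953 in 5-3.19 and 5-3.14, 5381 and 30224 in 1-1.16 and 1-1.2, and 28816 in parental cells. Ins1 stayed between 34381 and 42217. Of 4 probe sets for alpha and delta cells only that of Gcg, the glucagon gene, was tested, and it read 24434 and 20550 in 5-3.19 and 5-3.14, 17772 and 2064 in 1-1.16 and 1-1.2, and 6875 in parental cells, while the other 3 (Sst, Ppy and Hhex) read 7.8 to 101.2. Of 12 neuronal probe sets 9 were tested, with a sum over all 12 of 23483 and 18730 in 5-3.19 and 5-3.14, 17080 and 17659 in 1-1.16 and 1-1.2, and 23152 in parental cells. Of the 9 tested, 5 had a higher mean log2 signal in set 5-3 than in set 1-1 and 4 a lower one, with a median of 0.09. The neurofilament genes Nefm and Nefl among them were lower in set 5-3, by log2 differences of −2.28 and −2.44 with a limma adjusted p of 0.0363 for each. Stmn2 was higher, by 1.44 and 1.11 on its pair of probe sets, and did not pass. Of 13 fibroblast probe sets the 2 tested were both of Thy1, and the 13 summed to 3125 and 4987 in 5-3.19 and 5-3.14, 2696 and 4003 in 1-1.16 and 1-1.2, and 2750 in parental cells. The part of these markers in the values below was not tested. The parental array stood apart in its added controls: 24 of 27 probe sets for poly(A) controls were brighter on it than on any clone array, and 15 of 18 for hybridisation controls were dimmer. The line and the handling of its only array cannot be told apart. In bulk RNA, fewer cells of a kind and less RNA per cell cannot be told apart either.

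The 3 subunit genes with the highest signal in set 5-3 relative to set 1-1, after ranking by the gap between the nearest arrays, were Ndufb7, Ndufv3 and Cox4i1, and Sdha was the member with the largest gap between 1 array and the other 4. Their promoter sequences from RefSeq on the GRCr8 assembly, 250 bases before and 50 after the annotated start, are shown because these 4 genes carry the differences described below and because respiratory genes are known for shared promoter motifs. Each is written 5′ to 3′ on the strand of its gene, and capitals mark matches on either strand to the ETS motif CCGGAAG, to the NRF-1 motif, GCGCA, any base and GCGC, to the YY1 motif AAGATGGC or to the ERR motif TCAAGGTCA.
Ndufb7 promoter, chr19:41477242-41477541, minus strand: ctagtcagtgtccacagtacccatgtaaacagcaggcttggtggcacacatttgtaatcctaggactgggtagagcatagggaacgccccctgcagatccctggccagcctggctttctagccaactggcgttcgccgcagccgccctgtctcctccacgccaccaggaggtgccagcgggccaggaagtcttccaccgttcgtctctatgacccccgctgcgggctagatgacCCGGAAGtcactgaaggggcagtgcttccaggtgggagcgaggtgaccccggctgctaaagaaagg
Cox4i1 promoter, chr19:65630133-65630432, plus strand: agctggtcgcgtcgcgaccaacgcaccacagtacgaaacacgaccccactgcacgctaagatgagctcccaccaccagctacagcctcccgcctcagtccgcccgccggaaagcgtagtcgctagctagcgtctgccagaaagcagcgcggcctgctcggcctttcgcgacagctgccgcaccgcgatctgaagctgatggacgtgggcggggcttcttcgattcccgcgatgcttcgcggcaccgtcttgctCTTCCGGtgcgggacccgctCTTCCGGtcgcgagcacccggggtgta
Ndufv3 promoter, chr20:9613536-9613835, plus strand: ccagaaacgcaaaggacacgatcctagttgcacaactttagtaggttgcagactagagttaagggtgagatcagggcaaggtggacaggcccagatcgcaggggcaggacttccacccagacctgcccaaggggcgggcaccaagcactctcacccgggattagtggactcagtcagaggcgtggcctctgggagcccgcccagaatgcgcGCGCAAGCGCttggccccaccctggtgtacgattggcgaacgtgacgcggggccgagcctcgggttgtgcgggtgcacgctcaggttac
Sdha promoter, chr1:30764303-30764602, plus strand: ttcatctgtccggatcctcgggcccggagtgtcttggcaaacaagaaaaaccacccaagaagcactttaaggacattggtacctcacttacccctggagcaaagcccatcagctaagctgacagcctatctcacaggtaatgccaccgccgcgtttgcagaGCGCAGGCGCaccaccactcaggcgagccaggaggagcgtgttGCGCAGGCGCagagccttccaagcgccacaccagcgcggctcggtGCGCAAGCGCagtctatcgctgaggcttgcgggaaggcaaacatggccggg
The Ndufb7 window held 1 ETS match, the Cox4i1 window 2, the Ndufv3 window 1 NRF-1 match and the Sdha window 3. Among the 80 member genes with a promoter entry, 24 held the ETS motif, a share of 30.0% against 8.75% of all 33469 promoters. The NRF-1 motif stood in 17 of 80 (21.2%) against 4.25% of all promoters, and the YY1 motif in 17 of 80 (21.2%) against 3.17%. The Sp1 motif GGGCGG stood in 36 of 80 (45.0%) against 33.1%, and the ERR motif in 2 of 80 (2.5%) against 0.433%. None of these motifs contains another. The 33469 promoters are all entries and not only those of the 10411 genes named on the array. No share was counted for genes on the array or for tested genes alone. A match is a string of letters and not a measured site.

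The members were bright and steady. Their median mean signal was 6895, against 966 for all 9520 probe sets tested, and 56 of 85 averaged at least 5000. The highest array was a median of 1.39 times the lowest, against 1.64 times for all tested probe sets. Of the members, 53 (62.4%) stayed within 1.5-fold over the 5 arrays, against 36.1% of all tested probe sets. The steadiest were Cox8a, a small subunit of complex IV, at 1.12-fold, and the head subunits of ATP synthase Atp5f1a, Atp5f1c and Atp5f1b at 1.12-, 1.13- and 1.15-fold. By contrast, 11 member probe sets spanned over 2-fold, and 27.8% of all tested probe sets did. The widest was Sdha at 3.0-fold, then Ndufb7 at 2.59-fold and Ndufv3 at 2.45-fold on one probe set and 2.22-fold on the other.

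By complex, the median log2 difference from the parental array lay between −0.17 and 0.32 in every clone. For complex I, which holds 35 tested probe sets, the median log2 difference was −0.17 in 5-3.19, 0.09 in 5-3.14, −0.06 in 1-1.16 and 0.25 in 1-1.2. For the 11 of complex IV it was −0.07, 0.19, −0.06 and 0.16 in the clones 5-3.19, 5-3.14, 1-1.16 and 1-1.2, and for the 16 of ATP synthase 0.10, 0.18, −0.01 and 0.16 in the same clones. For the 5 of complex II it was 0.09 in 5-3.19, 0.0090 in 5-3.14, −0.02 in 1-1.16 and −0.0077 in 1-1.2, and for the 8 of complex III −0.09, 0.11, −0.0042 and 0.21 in the same clones. The 9 assembly factor probe sets had medians of −0.16 in 5-3.19, 0.05 in 5-3.14, 0.32 in 1-1.16 and 0.29 in 1-1.2. Over all members the medians were −0.08 in 5-3.19, 0.13 in 5-3.14, −0.01 in 1-1.16 and 0.22 in 1-1.2, where all tested probe sets had −0.01, −0.02, 0.04 and 0.00. In clone 1-1.2, 73 of 85 members were above the parental array, against 63.5% of the brightest 20% of all tested probe sets. Under quantile normalization the 1-1.2 median became −0.03 for complex IV and 0.01 for ATP synthase, and under cyclic loess −0.03 and −0.01, so the height of 1-1.2 over the parental line in these complexes depends on the scaling.

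**Figure D1:**
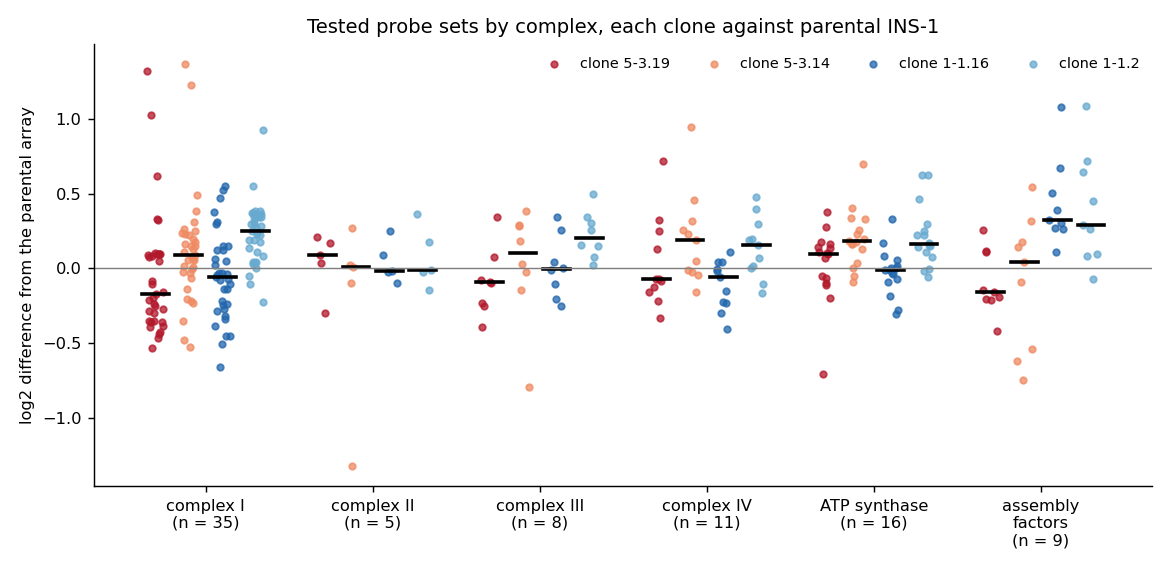
Log2 difference of each clone from the parental array for 84 tested probe sets, by complex, with 1 point per probe set and a black line at the median. Most points lie near 0 in every complex, and the pseudogene Cox6c-ps1 is not drawn.

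No member differed between the 4 clones and the parental line by limma with Benjamini-Hochberg adjustment over 9520 probe sets, where the share of all tested probe sets called was also 0.0%. The lowest adjusted p of a member was 1.00, and 0 members had an unadjusted p under 0.05, against 3.67% of all. With 1 parental array the test is weak, so the values are given as a description. All 4 clones were above the parental array for 15 members (18.4% of all tested probe sets were) and below it for 2 (19.7% of all were). With a clone left out fewer arrays have to fall on 1 side, and the counts were then 16 to 27 above and 3 to 13 below.

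Among the members above the parental array in every clone, Atp5me, a small membrane subunit of ATP synthase, had the widest separation. It read 3418 and 4279 in clones 5-3.19 and 5-3.14, 3307 and 4056 in clones 1-1.16 and 1-1.2, and 2630 in parental cells. The mean of the clones was 3765 ± 476 (SD, n = 4), a log2 difference of 0.51 with an SE of 0.26. Its other probe set was too dim to test and had 3 of 4 clones below the parental array, at 197.3 and 235.2 in 5-3.19 and 5-3.14, 116.5 and 164.6 in 1-1.16 and 1-1.2, and 231.3 in parental cells. Ndufaf8, a complex I assembly factor, read 1586 and 1936 in 5-3.19 and 5-3.14, 1637 and 2192 in 1-1.16 and 1-1.2, and 1323 in parental cells. Atp5pb, a peripheral stalk subunit that holds the head of ATP synthase still, read 12383 and 13092 in 5-3.19 and 5-3.14, 12327 and 13494 in 1-1.16 and 1-1.2, and 10973 in parental cells. On these probe sets all 3 genes were lowest in the parental line, yet by less than 2 of the fitted SE for each. Cox5b, a nuclear-encoded subunit of complex IV, averaged 12525 ± 1219 in the clones (SD, n = 4), against 10588 in parental cells. Ndufb10, an accessory subunit of complex I, averaged 5077 ± 305 in the clones (SD, n = 4), against 4358 in parental cells. Ndufs7, a core subunit with an iron-sulfur cluster, averaged 2816 ± 257 in the clones (SD, n = 4), against 2289 in parental cells, and Ndufs3, another core subunit, averaged 3670 ± 308 (SD, n = 4), against 3233.

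The pair of members below the parental array in every clone were Ndufv2, a core complex I subunit with an iron-sulfur cluster, and Atp5f1b, the catalytic beta subunit of ATP synthase. Ndufv2 read 4105 and 4446 in 5-3.19 and 5-3.14, 4801 and 5465 in 1-1.16 and 1-1.2, and 5666 in parental cells. Atp5f1b read 15824 and 17511 in 5-3.19 and 5-3.14, 15987 and 18074 in 1-1.16 and 1-1.2, and 18150 in parental cells, so that clone 1-1.2 lay close to it. The count of 2 depends on the scaling: it was 13 under quantile normalization, 12 under cyclic loess and 0 under median centring.

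Between the clone sets, no member passed limma with Benjamini-Hochberg adjustment, while 0.42% of all tested probe sets (40 of 9520) did. The lowest adjusted p among members was 0.131, for Ndufb7. At an unadjusted p under 0.05 there were 11 members of 85, or 12.9%, against 14.8% of all. Both 5-3 clones were above both 1-1 clones for 9 members (22.1% of all tested probe sets were), and both were below for 16 (24.5% of all were). With a clone left out fewer arrays have to be separate, and the counts were then 10 to 37 above and 17 to 51 below. The share of all tested probe sets was not counted for these runs. These shares are below the background, and the members between the sets are described by their values.

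Ndufb7, an accessory subunit of the membrane arm of complex I, read 4410 and 4545 in clones 5-3.19 and 5-3.14, 2573 and 2090.5 in clones 1-1.16 and 1-1.2, and 1752 in parental cells. Both 5-3 clones were above every other array. The set means were 4477 ± 95.9 in set 5-3 and 2332 ± 341 in set 1-1 (SD, n = 2 each), a log2 difference of 0.94 with an SE of 0.21. Cox4i1, the broadly expressed form of complex IV subunit 4, read 14352 and 16791 in 5-3.19 and 5-3.14, 8711 and 9962 in 1-1.16 and 1-1.2, and 8728 in parental cells. The set means were 15572 ± 1725 in set 5-3 and 9336 ± 885 in set 1-1 (SD, n = 2 each), a log2 difference of 0.74 with an SE of 0.18 and a limma adjusted p of 0.144. Both 5-3 clones again lay above the other 3 arrays.

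Ndufv3, an accessory subunit of the NADH-binding part of complex I, has a pair of probe sets that differ in direction against the parental line. On the dimmer one it read 571 and 660 in 5-3.19 and 5-3.14, 356 and 271 in 1-1.16 and 1-1.2, and 269.5 in parental cells. On the brighter one it read 8188 and 12834 in 5-3.19 and 5-3.14, 5789 and 8490 in 1-1.16 and 1-1.2, and 9137 in parental cells. The 5-3 clones stood above the 1-1 clones on the dimmer probe set, and overlapped with them on the brighter one, with log2 differences between the sets of 0.94 and 0.55. The files do not say which transcript each probe set reads. Cox7a2l, which takes part in joining complexes III and IV into supercomplexes, read 10205 and 11189 in 5-3.19 and 5-3.14, 6936 and 7567 in 1-1.16 and 1-1.2, and 8141 in parental cells. Its sets did not overlap, and the parental array lay between them, with a log2 difference of 0.56, an SE of 0.17 and a limma adjusted p of 0.210.

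The other members with set 5-3 above set 1-1 differed little. Atp5pd, of the peripheral stalk of ATP synthase, read 18421 and 17827 in 5-3.19 and 5-3.14, against 14858 and 16967 in 1-1.16 and 1-1.2. Atp5f1c, the rotating gamma subunit, read 11539 and 11820 in 5-3.19 and 5-3.14, against 10479 and 11038 in 1-1.16 and 1-1.2. Ndufa1, a small complex I subunit, read 18083 and 19057 in 5-3.19 and 5-3.14, against 14227 and 17692 in 1-1.16 and 1-1.2. The log2 differences between the sets were 0.19 for Atp5pd, 0.12 for Atp5f1c and 0.23 for Ndufa1, with SEs of 0.15, 0.16 and 0.17 for these genes.

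**Figure D2:**
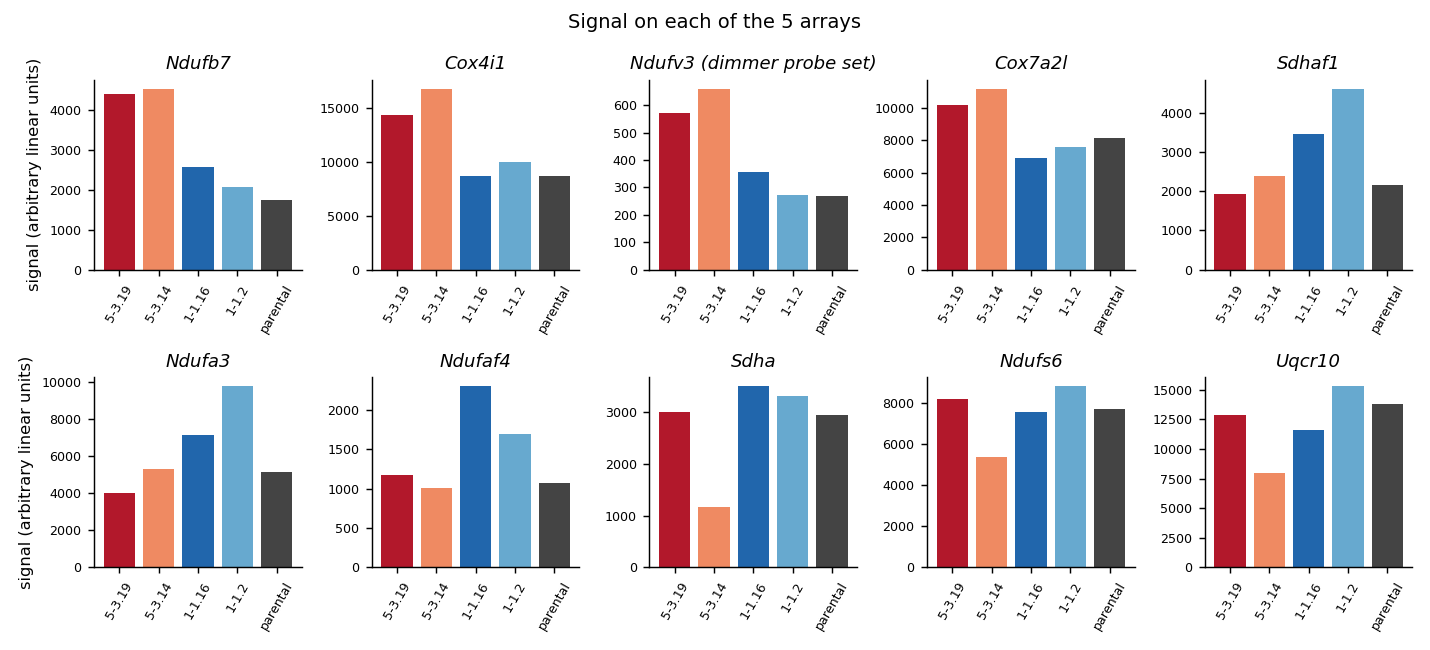
Linear signal of 10 members on each of the 5 arrays, with 1 bar per array and axes that start at 0. Ndufb7, Cox4i1 and Ndufv3, drawn from its dimmer probe set, are highest in both 5-3 clones, Sdhaf1, Ndufa3 and Ndufaf4 in both 1-1 clones, and Sdha, Ndufs6 and Uqcr10 are lowest in clone 5-3.14.

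Of the 16 members with set 5-3 below set 1-1, 8 were subunits, 7 were assembly factors and 1 was a pseudogene, out of 74 subunit and 9 assembly factor probe sets tested. All 9 tested assembly factor probe sets had a lower mean log2 signal in set 5-3, with a median log2 difference of −0.57, where 54.2% of all tested probe sets had a lower mean log2 signal and the median was −0.04. Their sets did not overlap for 7 of the 9 (24.5% of all tested probe sets had set 5-3 below set 1-1). Under median centring and under cyclic loess 8 of the 9 were lower, and the exception was Sdhaf4, whose log2 difference was −0.0076 as deposited, while its mean linear signal was slightly higher in set 5-3. None passed the limma test, and the 9 were not tested as a group.

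Sdhaf1, which helps insert iron-sulfur clusters into complex II, read 1935 and 2385 in 5-3.19 and 5-3.14, 3448 and 4610 in 1-1.16 and 1-1.2, and 2159 in parental cells. The set means were 2160 ± 319 in set 5-3 and 4029 ± 822 in set 1-1 (SD, n = 2 each), a log2 difference of −0.89 with an SE of 0.24 and a limma adjusted p of 0.178. Ndufaf4, a complex I assembly factor, read 1171 and 1014 in 5-3.19 and 5-3.14, 2300 and 1698 in 1-1.16 and 1-1.2, and 1079 in parental cells, with a log2 difference between the sets of −0.85 and an SE of 0.25. For both genes the 5-3 clones lay near the parental array and the 1-1 clones above it. Ndufaf7, a methyltransferase that acts on a core complex I subunit, read 289 and 190.0 in 5-3.19 and 5-3.14, 443 and 404 in 1-1.16 and 1-1.2, and 332 in parental cells, which lay between the sets. Sdhaf2, which attaches the flavin to Sdha, read 1060 and 974 in 5-3.19 and 5-3.14, 1707 and 1351 in 1-1.16 and 1-1.2, and 1421 in parental cells. Its other probe set was too dim to test and read 31.4 and 41.7 in 5-3.19 and 5-3.14, 268.9 and 178.6 in 1-1.16 and 1-1.2, and 146.1 in parental cells, with the same order of the sets. Sdhaf3, which like Sdhaf1 acts on the iron-sulfur subunit of complex II, read 439 and 257 in 5-3.19 and 5-3.14, 582 and 499 in 1-1.16 and 1-1.2, and 405 in parental cells.

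A wider list of 35 assembly genes, which includes the complex II factors just described, had 29 probe sets tested. Of these, 21 had a lower mean log2 signal in set 5-3, and the median log2 difference was −0.19. Both 5-3 clones were below both 1-1 clones for 12 (24.5% of all tested probe sets were), among them Sdhaf1, Sdhaf2 and Sdhaf3 counted above, and above both for 2 (22.1% of all were). Among 10 probe sets of adenine nucleotide and phosphate carriers and related proteins, 7 had a higher mean log2 signal in set 5-3, with a median of 0.17. Of 19 probe sets of the tricarboxylic acid cycle and pyruvate dehydrogenase, 13 had a lower mean log2 signal in set 5-3, with a median of −0.09. Between the sets 0 probe sets of these 3 lists passed limma after Benjamini-Hochberg adjustment, and at an unadjusted p under 0.05 there were 4 of the 29 assembly probe sets, 3 of the 10 of carriers and 3 of the 19 of the cycle, against 14.8% of all tested probe sets. It called 0 between the clones and the parental line, where 0, 1 and 0 had such a p, against 3.67% of all.

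The subunits with set 5-3 below set 1-1 were Ndufa3, Ndufs4, Ndufb9, Ndufv2, Sdha, Cyc1, Cox6a1 and Atp5mg. Ndufa3, an accessory complex I subunit, read 3996 and 5309 in 5-3.19 and 5-3.14, 7098 and 9734 in 1-1.16 and 1-1.2, and 5113 in parental cells, with a log2 difference of −0.85 and an SE of 0.24. Ndufs4, an accessory subunit needed for a stable complex I, read 1016 and 1166 in 5-3.19 and 5-3.14, 1705 and 1609 in 1-1.16 and 1-1.2, and 1369 in parental cells. Atp5mg, a membrane subunit of ATP synthase, read 7428 and 11405 in 5-3.19 and 5-3.14, 12151 and 16752 in 1-1.16 and 1-1.2, and 12124 in parental cells, with the largest gap between the clones of a set among these 3. Cox6c-ps1, a transcribed pseudogene of complex IV subunit 6c, read 191 and 236 in 5-3.19 and 5-3.14, 321 and 331 in 1-1.16 and 1-1.2, and 251.4 in parental cells. Probe sets of a pseudogene and of its parent gene can share transcripts, and Cox6c itself read 22982 and 24841 in 5-3.19 and 5-3.14, 20431 and 25417 in 1-1.16 and 1-1.2, and 25072 in parental cells.

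Chromosome position moved with several of these values. On the GRCr8 assembly, Ndufb7 and Cox4i1 lie on chromosome 19 and Ndufv3 on chromosome 20. Over the 238 tested probe sets of chromosome 19 the median log2 difference between set 5-3 and set 1-1 was 0.74, and both 5-3 clones were above both 1-1 clones for 81.1% of them. Over the 261 of chromosome 20 the median was 0.40 and the share 57.9%. The other 19 chromosomes had medians of −0.27 to 0.02. Against the parental array, the median of chromosome 19 was 0.71 in clone 5-3.19, 0.80 in 5-3.14, 0.03 in 1-1.16 and 0.01 in 1-1.2.

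**Figure D3:**
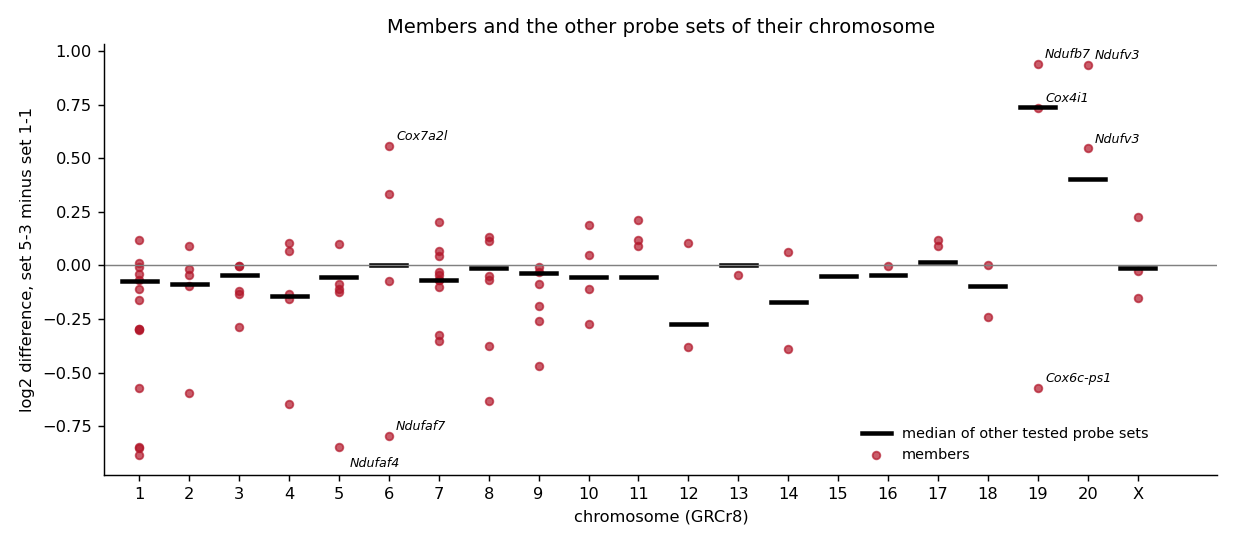
Log2 difference of set 5-3 minus set 1-1 for the tested members, placed by chromosome, with a black line at the median of the other tested probe sets of each chromosome. The lines of chromosomes 19 and 20 lie at 0.74 and 0.40, close to Cox4i1 and below Ndufb7 and both Ndufv3 probe sets, and Cox6c-ps1 lies below the line of its chromosome.

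The 20 nearest tested genes, 10 on each side where the chromosome allows, showed the same on a smaller scale. All 20 neighbours of Ndufb7 were higher in set 5-3, with a median log2 difference of 0.78 beside 0.94 for Ndufb7 itself. For Cox4i1, 18 of 20 were higher, with a median of 0.55 beside 0.74. For Ndufv3, 18 of 20 were higher, with a median of 0.51 beside 0.74 for the mean of its probe sets. Emc8, which is transcribed away from Cox4i1 from a start 148 bases off, had 0.82. Cox6c-ps1 went the other way at −0.57, while all 20 of its neighbours on chromosome 19 were higher, with a median of 0.73. Among members lower in set 5-3, Sdha had 17 of 20 neighbours lower, with a median of −0.53 beside −0.85 for Sdha itself, and Cox6a1 on chromosome 12 had 19 of 20 lower, with a median of −0.33 beside −0.38, where the whole chromosome had a median of −0.27. The 5 members with the widest gaps below had 10 to 13 of 20 neighbours lower, with medians of −0.17 for Ndufaf4, −0.03 for Sdhaf1, −0.21 for Ndufs4, −0.08 for Ndufaf7 and −0.03 for Ndufa3. For Cox7a2l, above, 10 of 20 were lower and the median was 0.02. The part of chromosome position in these differences was not tested.

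In single clones, differences of at least 1.5-fold from the parental array were found for 5 members in 5-3.19 (17.5% of all tested probe sets), 8 in 5-3.14 (24.2% of all), 3 in 1-1.16 (24.3% of all) and 6 in 1-1.2 (17.5% of all). The members are bright, and among the brightest 20% of all tested probe sets the shares were lower. They were 11.6% in 5-3.19, 17.3% in 5-3.14, 16.8% in 1-1.16 and 10.8% in 1-1.2. Without the members on chromosomes 19 and 20 the member counts were 2 in 5-3.19 and 5 in 5-3.14. The shares of all tested probe sets include those chromosomes and were not counted without them. At 2-fold there were 2 in 5-3.19 (5.17% of all tested probe sets), 3 in 5-3.14 (8.92% of all), 1 in 1-1.16 (7.63% of all) and 1 in 1-1.2 (5.04% of all).

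The widest gap between a single clone and every other array was that of Sdha, the flavoprotein of complex II that oxidises succinate. Sdha read 3013 and 1166 in 5-3.19 and 5-3.14, 3499 and 3320.5 in 1-1.16 and 1-1.2, and 2938 in parental cells. Clone 5-3.14 stood 2.49-fold below the next lowest array, and the other 4 arrays lay close together. Its log2 difference from the parental array was −1.32 in 5-3.14 and 0.04 in 5-3.19. Between the sets the difference was −0.85 with an SE of 0.42 and a limma adjusted p of 0.417. Without clone 5-3.19, when 5-3.14 alone stood for its set, the difference was −1.53. The other subunits of complex II did not share the low value in 5-3.14. Sdhb, the iron-sulfur subunit, read 5981 and 7463 in 5-3.19 and 5-3.14, 6868 and 7309 in 1-1.16 and 1-1.2, and 7348 in parental cells. Sdhc, a membrane anchor, read 6051 and 6867 in 5-3.19 and 5-3.14, 6044 and 7307 in 1-1.16 and 1-1.2, and 5682 in parental cells. Sdhd, the other anchor, read 3000 and 2608 in 5-3.19 and 5-3.14, 2546 and 2554 in 1-1.16 and 1-1.2, and 2592 in parental cells on one probe set, and 4198 and 3480 in 5-3.19 and 5-3.14, 3687 and 3378 in 1-1.16 and 1-1.2, and 3726 in parental cells on the other. Both Sdhd probe sets were highest in clone 5-3.19.

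The neighbours of Sdha on chromosome 1 were low in the same clone. Of the 20 nearest tested genes, 19 were below the parental array in 5-3.14, with a median log2 difference of −1.05, and 10 were in 5-3.19, with a median of 0.00. Ndufs6, an accessory complex I subunit with a zinc site, shares some of these neighbours. It read 8221 and 5364 in 5-3.19 and 5-3.14, 7561 and 8811 in 1-1.16 and 1-1.2, and 7727 in parental cells, and 16 of its 20 neighbours were below the parental array in 5-3.14, with a median of −0.82. Uqcr10, a small subunit of complex III on chromosome 14, read 12890 and 7962 in 5-3.19 and 5-3.14, 11570 and 15289 in 1-1.16 and 1-1.2, and 13768 in parental cells. Of its 20 neighbours, 18 were below the parental array in 5-3.14, with a median of −0.57, and the median over all 278 tested probe sets of chromosome 14 was −0.46 in that clone against 0.03 in 5-3.19. All 3 members were lowest in 5-3.14. The part of position in these values was not tested.

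Over the 83 tested member genes, the correlation between a gene's difference from the parental array and the median of its neighbours was r = 0.43 (Spearman rho 0.23) in 5-3.19, r = 0.56 (rho 0.26) in 5-3.14, r = −0.01 (rho −0.0023) in 1-1.16 and r = 0.11 (rho 0.08) in 1-1.2. Without the genes on chromosomes 19 and 20 it was r = 0.22 (rho 0.17) in 5-3.19 and r = 0.49 (rho 0.21) in 5-3.14, over 79 genes. These are correlations across genes, which are not independent replicates, share 1 array of each line and in part share neighbours. Ndufaf7, Sdhaf3, Atp5me and Ndufs1 also lay apart from the parental array in 5-3.14, and their neighbour medians in that clone were nearer to 0 than those of Sdha, Ndufs6 and Uqcr10. Ndufaf7 had a log2 difference of −0.74, and 15 of its 20 neighbours were below the parental array, with a median of −0.14. Sdhaf3 had −0.62, and 9 of 20 neighbours were below, with a median of 0.08. Atp5me had 0.70 on its tested probe set, and 10 of its 15 neighbours were below, with a median of −0.16. Ndufs1, the largest core subunit of complex I, read 1256 and 577 in 5-3.19 and 5-3.14, 1176 and 1199 in 1-1.16 and 1-1.2, and 811 in parental cells, and 12 of its 20 neighbours were below in 5-3.14, with a median of −0.07.

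**Figure D4:**
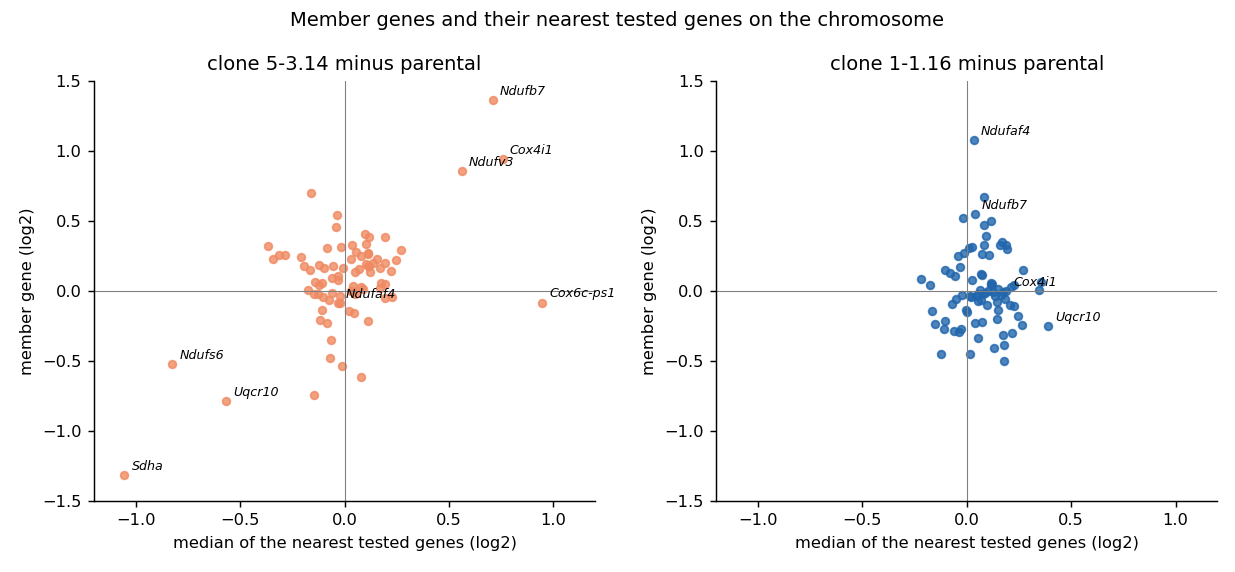
Log2 difference from the parental array of each of 83 member genes against the median of its nearest tested genes, in clone 5-3.14 on the left and clone 1-1.16 on the right. In 5-3.14 Ndufb7, Cox4i1 and Ndufv3 lie at the upper right and Sdha, Ndufs6 and Uqcr10 at the lower left, whereas in 1-1.16 the neighbour medians lie closer to 0.

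The clones of a set differed in the level of the members together. In 1-1.16, 71 of 85 members were below 1-1.2, where 44.5% of all tested probe sets were, and the median log2 difference was −0.23 against 0.05 for all. In 5-3.19, 66 of 85 members were below 5-3.14, where 52.1% of all tested probe sets were, and the median was −0.23 against −0.02. The members are bright, and the brightest 20% of all tested probe sets had 62.5% lower with a median of −0.09 in 1-1.16, and 64.3% lower with a median of −0.12 in 5-3.19. With quantile normalization the medians of the members were −0.13 in 1-1.16 (63 of 85 lower) and −0.10 in 5-3.19 (54 lower). Of all tested probe sets, 49.1% and 55.4% were then lower, with medians of 0.01 and −0.05. With median centring the medians of the members were −0.33 in 1-1.16 (74 lower) and −0.28 in 5-3.19 (69 lower). Of all tested probe sets, 55.1% and 56.9% were then lower, with medians of −0.05 and −0.08. The 3′ over 5′ signal of beta-actin, which rises as RNA degrades, was 1.73 in 1-1.16 and 1.49 in 1-1.2, and 1.61 in 5-3.19 and 1.62 in 5-3.14. The beta cell marker sum and Gcg also differed between 1-1.16 and 1-1.2, as given above. Their part in these differences was not tested, and with 1 array per clone there is no test of them.

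The differences between the clones of a set were counted by complex, with no test between complexes. In 1-1.16 against 1-1.2, the lower members were 32 of 35 in complex I, 7 of 8 in complex III, 10 of 11 in complex IV and 15 of 16 in ATP synthase, with medians of −0.31, −0.31, −0.28 and −0.20 in these complexes, and 3 of 5 were lower in complex II, with a median of −0.0045. Of 74 subunits in all, 66 were lower, and 3 of 9 assembly factors were, with a median of 0.13. The assembly factors were dimmer than the subunits, with median signals of 1021 to 1364 over the arrays against 7533 to 8855. Under the other scalings 4 of 9 assembly factors were lower, with medians from 0.02 to 0.03. In 5-3.19 against 5-3.14, 59 of the 74 subunits and 5 of the 9 assembly factors were lower. Among single genes, Ndufc1, a small accessory subunit, read 4761 in 1-1.16 and 7790 in 1-1.2. Atp5f1e, the smallest subunit of the ATP synthase head, read 10409 in 1-1.16 and 16827 in 1-1.2. Ndufb2, of the membrane arm of complex I, read 8145 in 5-3.19 and 12411 in 5-3.14.

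**Figure D5:**
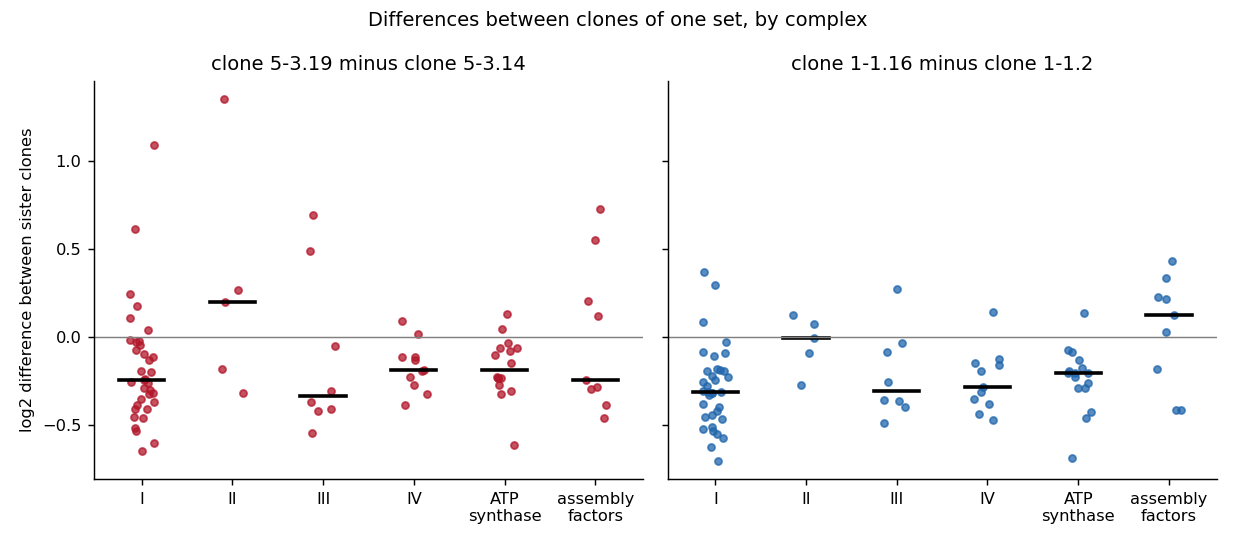
Log2 difference between the clones of a set for 84 tested probe sets by complex, 5-3.19 minus 5-3.14 on the left and 1-1.16 minus 1-1.2 on the right, with a black line at the median. Most subunits lie below 0 in both panels, and in the right panel the assembly factors lie around 0.13.

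Complexes III and IV and the isoform families complete the account. Cyc1, the cytochrome that hands electrons from complex III to cytochrome c, read 5203 and 6985 in 5-3.19 and 5-3.14, 7034 and 8421 in 1-1.16 and 1-1.2, and 6834 in parental cells, and was lowest in 5-3.19. Uqcrfs1, the iron-sulfur protein of complex III, read 10496 and 13566 in 5-3.19 and 5-3.14, 11072 and 11337 in 1-1.16 and 1-1.2, and 11159 in parental cells, and was highest in 5-3.14. Cox6a1, the broadly expressed form of subunit 6a, read 9750 and 11166 in 5-3.19 and 5-3.14, 11662 and 15811 in 1-1.16 and 1-1.2, and 11335 in parental cells. Its sets did not overlap, with a log2 difference of −0.38. Cox8a stayed between 15647 and 17546 on the 5 arrays, and Cox6b1 between 8165 and 10447.

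The tissue-restricted or inducible forms were dim. Cox4i2, the subunit 4 form known from lung and low oxygen, read 35.1 and 62.3 in 5-3.19 and 5-3.14, 101.4 and 174.0 in 1-1.16 and 1-1.2, and 189.5 in parental cells. The heart and skeletal muscle forms Cox6a2, Cox7a1 and Cox8b read 7.2 to 25.3, 77.2 to 143.4 and 7.4 to 16.8 over the 5 arrays. Cox6b2, the testis form, read 13.3 to 88.0, and Ndufa4l2, known to be induced by low oxygen, read 53.8 to 190.3. No detection calls were used, so these values cannot be set apart from background. The remaining probe sets that were not tested were 2 of the 3 of Atp5if1, the inhibitor of ATP synthase, 1 of the pair of Atp5me and 1 of the pair of Sdhaf2. The tested Atp5if1 probe set read 7726 and 9075 in 5-3.19 and 5-3.14, 7115 and 8549 in 1-1.16 and 1-1.2, and 7173 in parental cells.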

How the data were processed

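The authors deposited linear signal intensities, 1 for each probe set on each of 5 arrays, whose trimmed mean was 1000, and these were used as deposited. The software behind them is not given in the sources used here, nor are background correction and detection calls. Control probe sets (57 of 15923) were left out. The test scale was log2(signal + 21.8), with the 10th percentile of positive signals as offset, which understates differences of dim genes. The 9520 probe sets whose mean log2 reached the 40th percentile (a signal of 194) were tested with limma 3.58.1 in R 4.3.3 (lmFit, eBayes with trend), Benjamini-Hochberg adjusted at 0.05. The clones against the parental line left 3 residual degrees of freedom, and the clone sets 2. The parental array was assumed to vary like the clones, and the fit was tested on simulated data. Gene names came from the platform annotation, and all 95 member probe sets matched RefSeq's GRCr8 gene table by gene number. Alternatives changed the scaling, offset, filter, variance trend and fold limit, or left out 1 clone. Members were named for lying on 1 side of the parental array in all clones, for sets that did not overlap, for the largest gaps to other arrays, as members of isoform families, or as the brightest of a complex. Ndufs1, Ndufs6, Ndufb9, Ndufc1, Atp5f1e, Ndufb2 and Sdhaf4 were named after their values were seen. The members, lists and rules were chosen with earlier results of these data known.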

Additional observations from a re-analysis of the deposited data

Results flagged for a closer look

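On 3 of the 85 tested probe sets, 1 clone lay far from the other 3: Ndufs3 was highest in 1-1.2, with a gap of 0.903 of the clones' range, Ndufs1 was lowest in 5-3.14, with a gap of 0.882, and Sdhd, on its dimmer probe set, was highest in 5-3.19, with a gap of 0.864. Chance sets apart about 1 in 20 groups in this way.

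For 7 of the 85 members, both 5-3 clones lay on 1 side of the parental array and both 1-1 clones on the other, as 12.1% of all tested probe sets did. The log2 differences of set 5-3 minus set 1-1 were 0.56 for Cox7a2l, 0.13 for the same Sdhd probe set, −0.60 for Ndufs4, −0.79 for Ndufaf7, −0.57 for Cox6c-ps1, −0.63 for Atp5mg and −0.38 for Cox6a1. None of these passed limma with Benjamini-Hochberg adjustment, and both comparisons share the parental array.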

How the results depend on the processing

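The other scalings, offsets and filters, and a limma fit without an intensity trend, called 0 members in either comparison, the lowest adjusted p being 0.0764 for Cox4i1 between the sets under cyclic loess. The number of members below the parental array in every clone moved to 0 under median centring, 13 under quantile normalization, 12 under cyclic loess and 4 without a filter. The number with set 5-3 below set 1-1 moved to 10 under median centring. Members at least 1.5-fold from the parental array numbered 10 in 5-3.19 and 9 in 1-1.16 without a filter and 5 in 5-3.14 with a filter at the 60th percentile, and at 2-fold 2 in 5-3.19, 3 in 5-3.14, 1 in 1-1.16 and 1 in 1-1.2. Without members on chromosomes 19 and 20, an alternative chosen after seeing the data, they numbered 2 in 5-3.19 and 5 in 5-3.14. No share of all tested probe sets without those chromosomes was counted. The causes were not tested.

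Each clone was left out in turn, which left 1 clone to stand for its set, so only counts and effect sizes are given. Members above the parental array in every clone numbered 16 to 27 and below it 3 to 13. Members with set 5-3 above set 1-1 numbered 10 to 37 and below it 17 to 51, and the median between the sets was −0.19 to 0.05. Fewer arrays have to be separate in these runs, and the share of all tested probe sets was not counted for them. Without 5-3.19, clone 5-3.14 alone stood for its set and was assumed to vary like the other clones. The log2 difference of Sdha between the sets was then −1.53. The counts above the parental array were 26 without 1-1.16 and 27 without 5-3.19, and those below it 13 without 1-1.2 and 7 without 5-3.14. Set 5-3 lay above set 1-1 for 37 members without 1-1.2, 28 without 5-3.19 and 14 without 5-3.14, and below it for 51 without 1-1.16 and 41 without 5-3.14. The medians of single complexes moved by more than the spread between clones in 6 other cases. No paired analysis was possible because the replicate numbers only name clones. Signal near background limits the 10 members that were not tested.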
